A study of Homo sapiens with 4 samples.

Results

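The genes described here are 9 proximal tubule identity genes, *LRP2*, *CUBN*, *AQP1*, *SLC5A2*, *SLC34A1*, *ANPEP*, *GGT1*, *HNF4A* and *PAX8*, out of 58288 genes in the RNA-seq tables. They were chosen by name, as genes known to mark this segment or to specify it, and HIF1α peaks at or near them were taken from the ChIP-seq lists. The data came from HK2 cells, which are 1 immortalized line derived from human proximal tubule, treated with 50 μM FG-4592 (roxadustat), an inhibitor of the prolyl hydroxylases that mark HIFα for degradation. There were 2 RNA-seq libraries and 2 HIF1α ChIP-seq peak lists, all from treated cells, and the treatment time in the methods was 6 h. Untreated cells were not analysed here, so every value below is a level under FG-4592, and no change was tested.

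The proximal tubule reabsorbs most of what the glomerulus filters. Its brush border carries peptidases, its apical membrane carries sodium-coupled glucose and phosphate carriers and water channels, and the receptors megalin and cubilin take up filtered protein by endocytosis. This program depends on transcription factors such as HNF4A and PAX8, and epithelial lines in culture are known to lose part of it.

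All 9 genes were found in both expression tables, but the match differed among them. A reference gene name was attached to 7 of them, while *LRP2* and *HNF4A* were named only in a second field. That second field was used for 32186 transcripts in replicate 1 and 32307 in replicate 2, none of which had any coverage. A value of 0 is therefore given as "listed at 0" and not as absence: all 13 protein-coding genes of the mitochondrial chromosome were also listed at 0 in both libraries. Of 73 ribosomal protein genes encoded in the nucleus, 0 were at 0 in both. The 2 ChIP-seq lists also differed, with 1689 peaks in replicate 1 and 16953 in replicate 2. Annotated exons held 32.9% of the peak bases in replicate 1 and 84.5% in replicate 2, and each list is therefore described separately.

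In the RNA-seq, 3 of the 9 genes (*PAX8*, *GGT1* and *SLC5A2*) reached an FPKM (fragments scaled by transcript length and library size) of at least 1 in both libraries. Among all 19658 protein-coding genes 58.8% did so. The other 6 genes had a mean FPKM under 0.1, and 2 of these, *LRP2* and *HNF4A*, were listed at 0 in both libraries. Of the 19658 protein-coding genes, 5740 had a mean FPKM under 0.1, and 3820 were listed at 0 in both libraries. Whether the 9 genes differ from all protein-coding genes in these counts was not tested. In bulk RNA, fewer cells expressing a gene and less RNA per cell cannot be told apart.

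**Figure D1:**
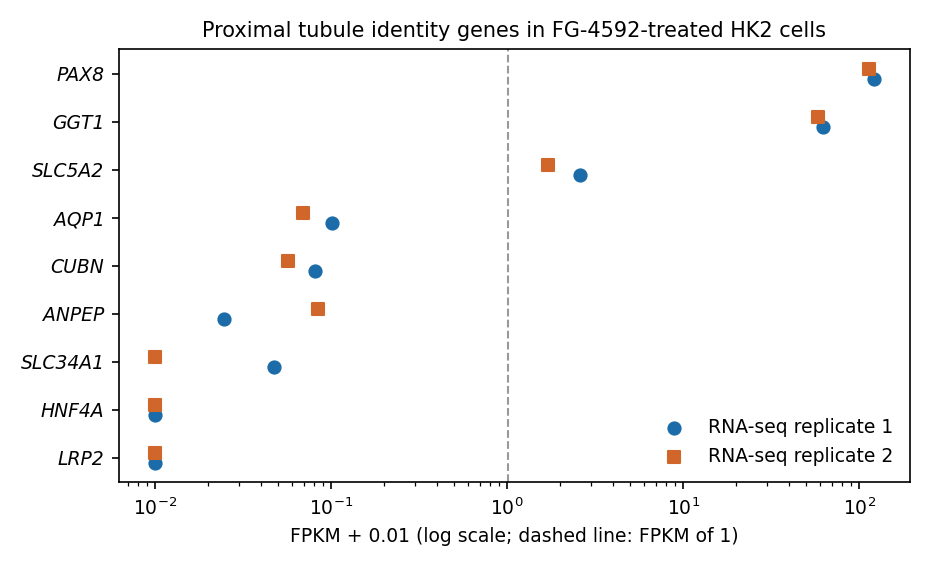
FPKM of each identity gene in the 2 RNA-seq libraries of FG-4592-treated HK2 cells (circles, replicate 1; squares, replicate 2), with 0.01 added so that a value of 0 can be drawn on the log axis. *PAX8* and *GGT1* lie above 50 and *SLC5A2* just above 1, while the other 6 genes lie under 0.1 in both libraries.

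Among the transcription factors, *PAX8*, a paired-box factor of the developing and adult nephron, had the highest summed level of the 9. It stood at 120.8 FPKM in the first library and 114.1 in the second (117.5 ± 4.75, SD, n = 2), which ranked 397 among protein-coding genes. All 12 exons of its canonical transcript carried reads in both libraries. The sum was steadier than its parts: the transcript ENST00000263335 had 17.0 and 4.11, and ENST00000263334 had 2.69 and 13.1. The split among these overlapping transcripts is thus less certain than the total. The antisense gene *PAX8-AS1* shares 685 exon bases with *PAX8* and had an FPKM of 10.2 and 11.8. Those shared bases held 7.07% and 7.16% of the *PAX8* coverage.

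*HNF4A*, the nuclear receptor that drives much of the mature tubular and hepatic program, was listed at 0 in both libraries for each of its 9 annotated transcripts. Its paralog *HNF4G* had an FPKM of 1.19 and 1.02. *PAX2*, the paralog of *PAX8*, had 0.287 and 0.359. Of 12 other tubular transcription factors 7 reached an FPKM of 1 in both libraries, among them *LHX1* (30.5 and 26.9), a homeobox factor of the developing nephron.

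The endocytic receptors were at the low end. *LRP2*, which encodes megalin, was listed at 0 in both libraries over 5 transcripts, the longest of 15808 bases. *CUBN*, which encodes cubilin, stood at 0.0716 and 0.0469 FPKM. Reads fell on 28 of its 67 exons in replicate 1 and on 25 in replicate 2, with 14 exons covered in both. Most of the covered exons lay between exon 31 and exon 55. Their partners were at higher levels: all 8 genes of the endocytosis list reached an FPKM of 1 in both libraries. *GIPC1*, an adaptor that binds the megalin tail, had 53.4 and 56.3. *LRPAP1*, the chaperone of megalin, had 21.5 and 18.8, and *AMN*, the membrane partner of cubilin, had 3.31 and 2.95.

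Among the channel and carriers, *SLC5A2*, which encodes the glucose carrier SGLT2, was the only gene that reached an FPKM of 1, with 2.59 in replicate 1 and 1.70 in replicate 2 (2.14 ± 0.625, SD, n = 2). The reads were not spread evenly over the gene. Coverage was summed over the transcripts of the gene at each exon of the full-length transcript. Exons 1 to 3 had a mean of 0.0170 and 0.515 reads, and exons 4 to 14 had 8.28 and 5.09. The 3′ end of *SLC5A2* shares 1390 exon bases with *C16orf58* (now *RUSF1*), a gene on the opposite strand with an FPKM of 15.4 and 34.1. Those bases held 54.3% and 46.7% of the *SLC5A2* coverage, and 429 bases shared with *AC026471.3* (0.792 and 0.606) held 6.87% and 13.1%. Whether the counting used strand is not given in the sources used here, so reads of overlapping genes cannot be told apart there. With the largest single transcript in place of the sum, *SLC5A2* had 1.33 and 0.781 and no longer reached 1 in both libraries.

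**Figure D2:**
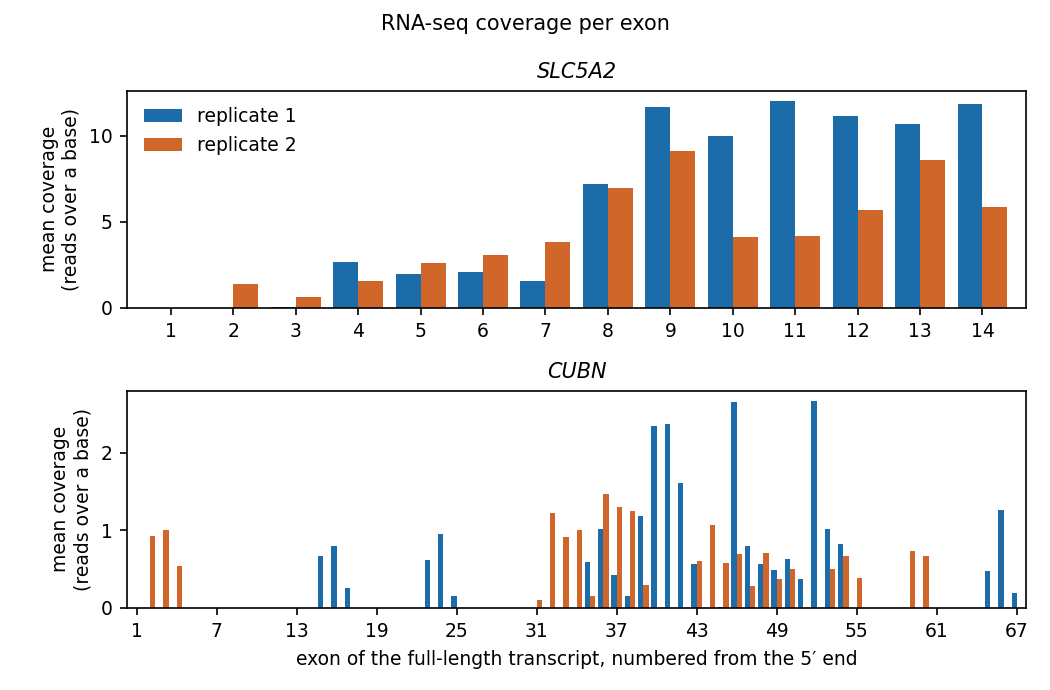
Mean RNA-seq coverage of each exon of *SLC5A2* (14 exons) and *CUBN* (67 exons), numbered from the 5′ end of the full-length transcript and summed over the transcripts of the gene, in replicate 1 (blue) and replicate 2 (orange). Coverage of *SLC5A2* is lowest over exons 1 to 3 and higher from exon 8 on, and coverage of *CUBN* is low, with most covered exons between 31 and 55.

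*AQP1*, the water channel of the proximal tubule and thin descending limb, had an FPKM of 0.0914 and 0.0593. Reads fell on 3 of its 4 exons in replicate 1 and on 1 in replicate 2. In replicate 1, 96.5% of the level was assigned to ENST00000409611 (1140 bases). In replicate 2 all of it was assigned to ENST00000311813 (2913 bases). Coverage times length went the other way from FPKM, with 600 and 900 bases, so the order of the 2 libraries depends on the transcript assigned. The overlapping gene *AC004691.2*, listed at 0, shares 910 exon bases with *AQP1*, which held 80.4% and 17.6% of its coverage. *SLC34A1*, the sodium-phosphate carrier NaPi-IIa, had 0.0372 in replicate 1, with reads on 1 of 4 exons of the transcript examined, and was listed at 0 in replicate 2. Of 30 further genes of solute transport, 11 reached an FPKM of 1 in both libraries. Among them were the sodium pump subunit *ATP1B1* (50.6 and 48.6) and the scaffold genes *SLC9A3R1* (19.6 and 18.4) and *PDZK1* (17.7 and 13.8). *SLC5A8*, *SLC5A12*, *SLC6A18*, *SLC6A19* and *SLC13A1*, apical carriers of monocarboxylates, amino acids and sulfate, were listed at 0 in both.

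The 2 brush border enzymes stood far apart. *GGT1*, the gamma-glutamyltransferase that breaks down glutathione, had an FPKM of 62.3 and 58.5 (60.4 ± 2.69, SD, n = 2), rank 912 among protein-coding genes. Its transcript ENST00000248923 accounted for 62.3% and 61.5% of that level, and all 16 exons of the canonical transcript carried reads. *SNRPD3* (32.3 and 37.5) shares 306 exon bases with *GGT1*, which held 4.54% and 4.91% of its coverage. Reads of *GGT1* may also be shared out to closely similar copies. Of these *GGT2* had 0.145 and 0.0522, *GGT3P* 0.0825 and 0.0129, *GGTLC1* 0.241 and 0.140, and *GGTLC2* 0.0757 and 1.84, while the more distant *GGT7* had 23.3 and 23.7. *ANPEP*, the aminopeptidase N of the microvilli, had an FPKM of 0.0148 and 0.0747, with reads on 3 and 6 of its 21 exons and on only 1 exon in both. The short transcript ENST00000559761 (469 bases) held 66.5% of the *ANPEP* level in replicate 2 and none in replicate 1. By ENST00000300060 alone, *ANPEP* had 0.0148 and 0.0250. Of 17 further brush border genes 3 reached an FPKM of 1 in both libraries, namely *EZR* (215.9 and 218.0), *DPP4* (30.01 and 31.7) and *MME* (10.1 and 8.94). *MEP1A*, *DPEP1*, *XPNPEP2*, *CA4* and *VIL1* were listed at 0 in both.

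In each library *PAX8* was above *GGT1* and *GGT1* above *SLC5A2*, by more than the spread between the libraries. This order holds for the sum over transcripts: by the largest single transcript *PAX8* had 36.4 and 27.4 and lay below *GGT1*, with 38.8 and 35.99. Below them the order was not fixed: the values of *AQP1*, *CUBN* and *ANPEP* overlapped between libraries, and those of *SLC34A1* overlapped the range of *ANPEP*. Compared on the log2 scale after adding 1, replicate 2 over replicate 1 gave -0.08 for *PAX8*, -0.09 for *GGT1* and -0.41 for *SLC5A2*.

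Other tubular lists gave a similarly mixed picture. The median FPKM of the 9 identity genes was 0.0716 in replicate 1 and 0.0593 in replicate 2, against 3.31 and 3.36 over all protein-coding genes. Of 19 metabolic genes of the proximal tubule, 4 reached an FPKM of 1 in both libraries, among them *UGT2B7* (19.3 and 20.02) and *MIOX* (11.3 and 10.1), and 9 were listed at 0 in both, including the gluconeogenic *FBP1* and *G6PC*. Of 14 organic ion transporters only *ABCB1* (11.7 and 9.999) and *ABCC4* (7.92 and 8.33) reached 1. *SLC22A6* and *SLC22A8*, the basolateral anion carriers OAT1 and OAT3, were listed at 0.

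Epithelial and injury lists had higher medians than the identity genes. Of 17 epithelial genes 13 reached an FPKM of 1 in both libraries, with *KRT19* at 184.1 and 176.7 and *KRT8* at 166.4 and 161.9. The share of all protein-coding genes was 58.8%, and with lists this short a difference from it was not tested. *CDH6* and *CDH2*, cadherins of the proximal tubule, had 71.95 and 74.0, and 63.8 and 63.7, while *CDH1*, named after its value was seen, had 0.211 and 0.379. Of 18 injury and mesenchymal genes 13 reached 1, led by *FN1* (2268 and 2179), *VIM* (1294 and 801.8) and *SPP1* (643.5 and 649.7). The 5 that did not, named after their values were seen, were *VCAM1* (0.802 and 1.02), *SOX9* (0.645 and 0.829), *ACTA2* (0.494 and 0.502), *LCN2* (0.555 and 0.365) and *PROM1* (0.0247 and 0.0529). Whether these levels moved with FG-4592 was not tested, since untreated libraries were not analysed here.

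**Figure D3:**
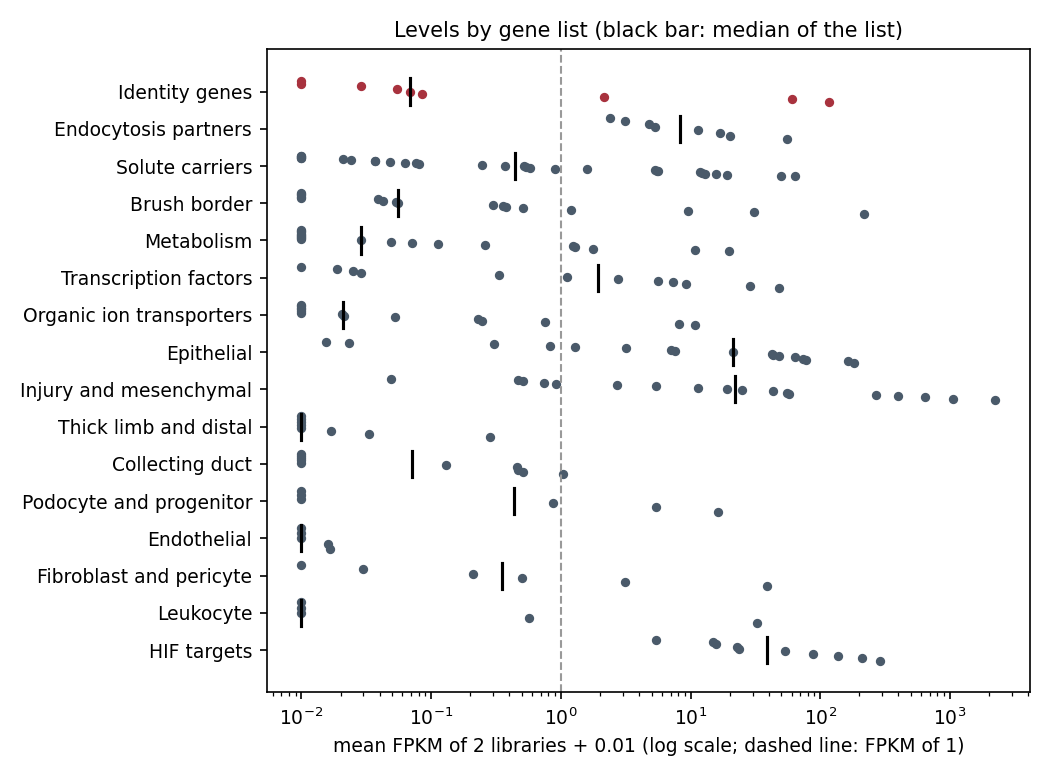
Mean FPKM of the 2 libraries (0.01 added, log axis) for every gene of each list, with the identity genes in red, the other lists in blue-grey and a black bar at the median of each list. The medians of the endocytosis, epithelial, injury and HIF target lists lie above an FPKM of 1, as does that of the transcription factors, and those of the identity genes and the other lists lie below it.

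Markers of other renal cells were mixed, with most genes under an FPKM of 1 and a few well above it. Of 8 thick limb and distal genes 0 reached an FPKM of 1 in both libraries, with summed levels of 0.315 and 0.295, *CLDN16* highest, and *UMOD* and *SLC12A1* listed at 0. Of 10 collecting duct genes 0 did, with sums of 2.34 and 2.79, *HSD11B2* highest, and *AQP2* listed at 0. For 6 podocyte and progenitor genes the count was 2 and the sums were 22.6 and 22.7, mostly from *SYNPO* (16.6 and 16.0), with *NPHS1* and *WT1* listed at 0. Among 5 endothelial genes 0 reached 1, the summed level was 0.0254 in replicate 1, from *CDH5* and *VWF*, and *PECAM1*, *KDR* and *EMCN* were listed at 0. Fibroblast and pericyte genes reached 1 in 2 of 6 cases, with sums of 42.5 and 42.6, mostly from *COL1A1* (38.7 in each library), and *PDGFRA* was listed at 0. Of 5 leukocyte genes only *CD68* did (33.6 and 31.5), with sums of 34.1 and 32.0, and *PTPRC*, *CD3E* and *MS4A1* were listed at 0.

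In the ChIP-seq, 0 of the 9 identity genes had a replicate 1 peak within 1 kb of an annotated start site, where 5.49% of protein-coding genes did. In the same list 7 of 10 known HIF target genes, *VEGFA*, *BNIP3* and *CA9* among them, had such a peak, and all 10 reached an FPKM of 1 in both RNA-seq libraries. Within 10 kb of the gene the count was 1 of 9, against 9.62% of protein-coding genes. The nearest replicate 1 peaks to the start sites of *SLC5A2* and *GGT1* were 18757 and 23234 bp away. Apart from *CUBN*, described next, the distance for the others ran from 65146 bp for *SLC34A1* to 2645710 bp for *LRP2*, and it was 158748 bp for *PAX8*.

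The gene counted within 10 kb was *CUBN* (GRCh37 chromosome 10, 16865965 to 17171810, minus strand). Its replicate 1 peak, chr10:17028471-17028840, lies in an intron with no exon base, 2277 bp from the nearest annotated start site, which is that of a shorter *CUBN* transcript. Replicate 2 had no peak closer than 99453 bp. The central 300 bases of the peak, chr10:17028506-17028805 (GRCh37, plus strand), are shown because it is the only replicate 1 peak in an identity gene. The capitals mark the core of a hypoxia response element, searched as ACGTG or GCGTG on both strands, which lies 13 bp from the centre.
CUBN intron peak: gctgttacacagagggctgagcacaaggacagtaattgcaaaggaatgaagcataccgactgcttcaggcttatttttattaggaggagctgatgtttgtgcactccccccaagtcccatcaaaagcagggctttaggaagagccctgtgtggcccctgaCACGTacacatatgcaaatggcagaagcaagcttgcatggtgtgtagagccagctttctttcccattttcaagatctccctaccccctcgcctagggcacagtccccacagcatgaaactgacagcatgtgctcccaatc
Of the 1661 replicate 1 peaks on assembled chromosomes, 88.3% held such a core in their central 300 bases, and of 16648 replicate 2 peaks 35.5% did.

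Replicate 2 had a peak at start sites of 7 of the 10 HIF target genes, though not the same 7. *ADM* had such a peak only in replicate 2 and *CA9* only in replicate 1. Of the identity genes, 3 of 9 (*AQP1*, *SLC5A2* and *ANPEP*) carried a peak no more than 1 kb from a start site, where 14.0% of protein-coding genes did. Within 10 kb of the gene the count was 5 of 9, against 50.2% of protein-coding genes, and it added *HNF4A* and *SLC34A1*. With only the first start site of each gene, the count of 3 became 1, against 5.81% of protein-coding genes. Without the peaks that touch an exon, a choice made once the data had been seen, the counts of 3 and 5 became 0 and 1, where 0.636% and 4.53% of protein-coding genes had such a peak.

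**Figure D4:**
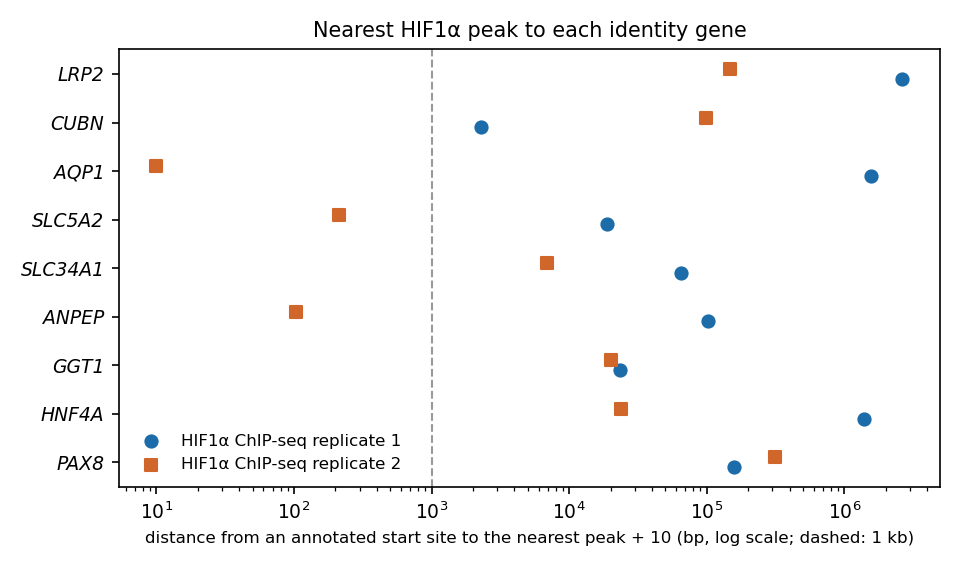
Distance from the annotated start sites of each identity gene to the nearest HIF1α peak in replicate 1 (circles) and replicate 2 (squares), with 10 bp added for the log axis. No replicate 1 peak lies left of the dashed line at 1 kb, and the replicate 2 peaks of *AQP1*, *ANPEP* and *SLC5A2* do.

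At *AQP1* (GRCh37 chromosome 7, 30951468 to 30965132) the replicate 2 peak chr7:30951531-30951853 covered a start site and coding exon sequence. A second, chr7:30963331-30964899, lay on exon sequence, outside the coding part at its centre. At *ANPEP* (chromosome 15, 90328126 to 90358633, minus strand) there were 3 replicate 2 peaks in the gene. They were chr15:90328318-90328648 on exon sequence near the 3′ end, chr15:90347293-90347648, centred in an intron 93 bp from a start site and 43.5% exon, and chr15:90349215-90349891 on coding exon sequence. At *HNF4A* (chromosome 20, 42984339 to 43061485) chr20:43053807-43054211 was intronic, and chr20:43058138-43060020 and chr20:43060175-43061190 lay on exon sequence outside the coding part at their centres. The intronic peak lay 26 bp from a start site of *AL132772.1*, and the nearest *HNF4A* start site was 23766 bp away.

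At *SLC5A2* (chromosome 16, 31494323 to 31502181) the replicate 2 peak chr16:31501013-31502193 lay on exon sequence that *RUSF1* shares, 203 bp from a start site of a short transcript. A further peak, chr16:31488717-31488943, lay 5380 bp outside the gene on a coding exon of *TGFB1I1*. The peak counted for *SLC34A1* (chromosome 5, 176806236 to 176825849) lay 6898 bp outside the gene, on an exon of its neighbour *RGS14*. *GGT1* (chromosome 22, 24990778 to 25024972), *PAX8* (chromosome 2, 113973574 to 114036498, minus strand) and *LRP2* (chromosome 2, 169983619 to 170219044, minus strand) had no replicate 2 peak within 10 kb, and the nearest were 20242, 312696 and 147250 bp away.

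The HIF core was also searched over the full length of these replicate 2 peaks, which differ in width, so the numbers of matches are not comparable between them. The 2 peaks of *AQP1* held 3 and 2 matches, in the order given above, the nearest 17 and 133 bp from the centre. Those of *ANPEP* held 1, 0 and 4, and those of *HNF4A* held 0, 3 and 2. In *SLC5A2* the peak inside the gene held 0 and the one outside it 3, and the peak counted for *SLC34A1* held 0.

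The replicate 2 peaks over exons did not follow the RNA-seq level among these genes, an observation made after the values were seen. Replicate 2 peaks covered 58.0% of the 3261 exon bases of *AQP1*, 28.3% of the 10167 of *HNF4A* and 23.05% of the 5046 of *ANPEP*, all with a mean FPKM under 0.1. These are 3 of the 6 identity genes at that level, and 8.15% of 5740 protein-coding genes at that level had any exon base under a replicate 2 peak. *SLC5A2* had 26.2% of 4468 exon bases covered. *PAX8* and *GGT1* had 0, although 76.2% of the 1142 protein-coding genes averaging 50 FPKM or more had exon bases under a replicate 2 peak. No identity gene had an exon base under a replicate 1 peak. Such peaks were also uncommon over all protein-coding genes. The share was 0.183% of genes listed at 0 and rose with FPKM to 11.99% of those averaging 100 FPKM or more. A difference of the identity genes from these shares was not tested. The source of the replicate 2 peaks over exons was not tested, nor was whether they mark HIF1α binding.

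**Figure D5:**
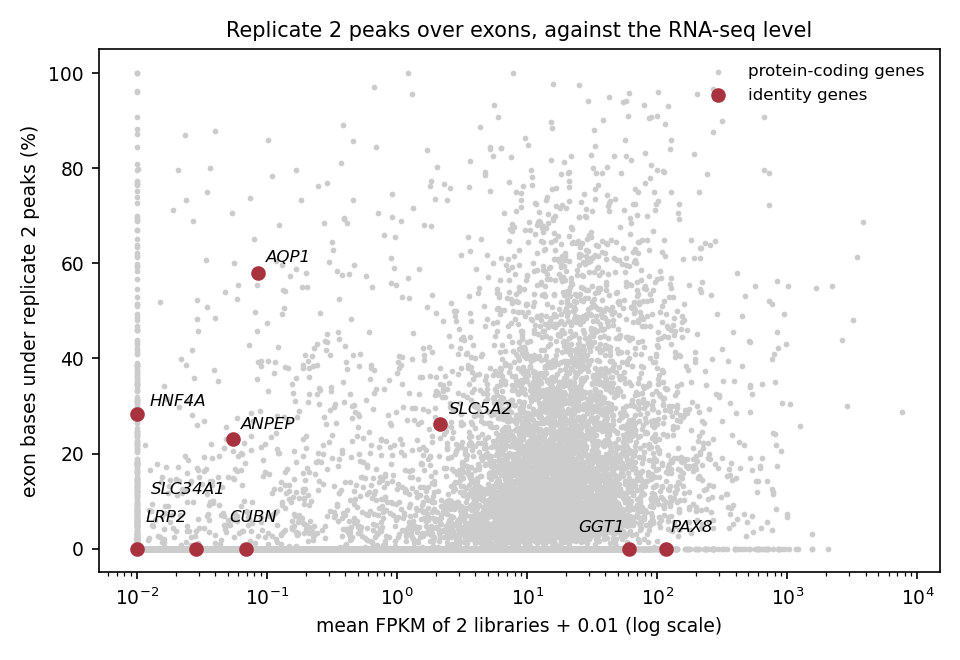
Percent of a gene's exon bases under HIF1α replicate 2 peaks against its mean FPKM in the 2 RNA-seq libraries (0.01 added, log axis), for protein-coding genes (grey) and the identity genes (red). *AQP1*, *HNF4A* and *ANPEP* combine a mean FPKM under 0.1 with 23.05% to 58.0% of exon bases covered, while *PAX8* and *GGT1* lie at 0%.

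The promoters of the identity genes were searched for motifs in RefSeq windows of 300 bases (GRCh38.p14, 250 before to 50 after a start), on both strands. A window was found for all 9 genes, and *ANPEP*, *GGT1* and *HNF4A* had more than 1. The HIF core was in 2 of their 12 windows, that of *LRP2* and 1 of the 2 of *ANPEP*, and in 48.4% of all 35116 promoter windows. The HNF4 motif CAAAGTCCA was in 0 of the 12 and in 0.384% of all. A match describes the letters only, and binding of HNF4A was not measured here.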

How the data were processed

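HIF1α ChIP-seq and RNA-seq of HK2 cells were each represented by 2 samples, grouped by the treatment label. For the ChIP-seq, the authors aligned reads to hg19 with Bowtie2 and called peaks with MACS2; the deposited lists hold positions only, so their depth is unknown. For the RNA-seq, the authors used HISAT2 and StringTie 1.3.3 on GENCODE 27 and their tables give every transcript a coverage, an FPKM and a TPM. Summed over all transcripts, coverage times length came to 4442 and 4202 Mb, and an FPKM of 1 corresponded to a mean coverage of 5.53 and 5.21 reads. FPKM was summed per gene. The methods name hg19 for the RNA-seq as well, but the expression tables hold GRCh38 coordinates (*CUBN* starts at 16823964 there and at 16865965 on GRCh37), so peaks were joined to genes by Ensembl identifier through GENCODE 44 on GRCh37. *CD24* and *PECAM1* could not be joined. A peak counted from 1 bp of overlap. The genes and lists were chosen with earlier results of these data known. Named genes are the 9, their copies and overlapping genes, high ones of each list, those of a list at 0, and the gene nearest a described peak; others are marked, and some genes and 1 motif are not reported here. Nothing was tested between groups. The alternatives covered the FPKM minimum, TPM, single transcripts, each replicate, windows, start sites and overlap. The interval code was tested on simulated data. Python 3.11.15, pandas 2.3.3, numpy 2.4.6, matplotlib 3.10.9 and samtools 1.23.1 were used.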

Additional observations from a re-analysis of the deposited data

How the results depend on the processing

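The count of identity genes with an FPKM of at least 1 in both libraries was 3 with a minimum of 0.5, with TPM and with either library alone. It was 2 with a minimum of 2 and with the largest single transcript, both times without *SLC5A2*. The share of all protein-coding genes under these alternatives is not given here, so the counts of 3 and 2 cannot be set against it. Pooled over all other lists, the count of 76 ranged from 70 to 91. That pool mixes tubular, epithelial, injury, HIF target and other cell type genes, and its count is likewise given without a share. In single lists, metabolism went from 4 to 2 with a minimum of 2 or the largest transcript. Collecting duct went from 0 to 1 with a minimum of 0.5, TPM or replicate 2 alone, and leukocyte from 1 to 2 with a minimum of 0.5 or TPM. With TPM, injury and mesenchymal genes also went from 13 to 17, solute carriers from 11 to 14 and brush border from 3 to 4. Some other lists also moved by a few genes. With 3 kb or 10 kb around start sites the replicate 1 count of 0 became 1 (*CUBN*), and with 50 kb around genes the count of 1 became 3. The share of all protein-coding genes at these wider windows is not given here, so these counts cannot be set against it. For replicate 2, using only the first start site of each gene changed the start-site count from 3 to 1. Without peaks that touch an exon, chosen after seeing the data, it was 0, and the count within 10 kb went from 5 to 1. TPM is on another scale and moved the mean of all 7 genes above 0. By the largest single transcript, *PAX8* went from 117.5 to 31.9, *GGT1* from 60.4 to 37.4 and *SLC5A2* from 2.14 to 1.05. With 2 libraries, leaving out 1 cannot move a mean by more than 1 SD, so it says nothing of stability. A pseudocount of 0.1 moved 5 of 9 log2 ratios between libraries by at least 0.1. No paired analysis was possible because no groups were compared by a test, and the RNA-seq and ChIP-seq share only replicate numbers. Peak strength and depth are unknown, and 2 libraries limit every SD.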

Other observations

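Among 4901 protein-coding genes with a mean FPKM under 0.1 and at least 1000 exon bases, mitochondrial genes left out, *AQP1* ranked 35 by the share of exon bases under replicate 2 peaks, *HNF4A* 113 and *ANPEP* 136. The genes at the top of that order, looked at after the values were seen, were *XIRP1* (96.2% of exon bases covered), *HAND1* (95.9%), *FMOD* (87.9%), *VTN* (87.0%) and *FGA* (85.9%). Next came *PCDHB5* (84.4%), *TIMP3* (80.9%), *PLN* (80.1%), *CD248* (79.7%) and *NYNRIN* (79.5%). Of these 10 genes, *XIRP1*, *HAND1*, *PCDHB5*, *TIMP3* and *NYNRIN* were listed at 0 in both RNA-seq libraries. Over all protein-coding genes the share with exon bases under a replicate 2 peak was 6.57% of those listed at 0 and 76.8% of those averaging 100 FPKM or more. A listed 0 is not read as absence, and where these exon peaks came from was not tested.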
